A study of Mus musculus with 38 samples.

Results

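The 10 genes described here encode the HSP90 chaperones and proteins that work with them. Hsp90aa1, Hsp90ab1, Hsp90b1 and Trap1 encode the chaperones themselves, and Stip1, Ahsa1, Fkbp4, Ptges3, Chordc1 and Cdc37 encode co-chaperones. They were listed by function, out of 21951 protein-coding genes in the GENCODE M21 basic annotation of mm10. Earlier results of these data were known when they were chosen, so the shares of all coding genes are given for description only. A binding site of the heat shock factor HSF1 or HSF2 was assigned to a gene when its interval lay over, or within 1 kb of, any annotated transcript start. Of the 10 genes, 7 had an HSF1 site, against 4.53% of all coding genes, and 7 had an HSF2 site, against 8.32%. They were the same 7 genes (Hsp90aa1, Hsp90ab1, Stip1, Ahsa1, Fkbp4, Ptges3 and Chordc1), and 3.13% of coding genes had a site of each factor. Each of the 7 had 1 distinct interval in each list (that of HSF2 at Hsp90aa1 is listed 2 times and was counted once), so that 7 of 1726 HSF1 sites and 7 of 2135 distinct HSF2 sites are described. Hsp90b1, Trap1 and Cdc37 had no site in either list.

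HSP90 is an abundant ATP-dependent chaperone that binds partly folded client proteins such as kinases and steroid receptors and helps them reach an active form. Co-chaperones bring clients to HSP90, set the pace of its ATPase cycle or stabilise one of its shapes. HSF1 is the main activator of the heat shock response and is itself held back by HSP90 in unstressed cells. HSF2 is a related factor with roles in development, and the DNA-binding domains of HSF1 and HSF2 recognise the same heat shock element, a row of inverted GAA units. Embryonic stem cells make large amounts of chaperones without heat stress.

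Binding was measured by CUT&Tag, in which a transposase tethered to an antibody cuts and tags the DNA beside the bound protein, in native JM8 cells, a mouse embryonic stem cell line. Asynchronous cells (A) were set against mitotic cells (M), which were shaken off after 6 h in 50 ng/ml nocodazole, a drug that blocks spindle assembly. HSF1 and HSF2 were mapped in unmodified JM8 cells. The HSF2 constructs, fusions with the HaloTag, were overexpressed and mapped in Hsf2 knockout cells. Halo-HSF2 holds the full-length protein and was mapped with anti-HSF2 and, as an HA-tagged form that the authors name separately, with anti-HA, and Halo-H2DBD, mapped with anti-HA, holds the DNA-binding domain with a nuclear localisation signal and lacks the regions through which HSF2 forms trimers. Each of these 10 conditions has 2 libraries. Only the authors' mean over the libraries is used here, so no spread between cultures and no test can be given for any value below, and the values themselves state no read depth.

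Each value is a signal, the mean coverage per base over the whole interval after scaling by fly spike-in reads. This mean does not remove the effect of interval width on the ranks. The HSF1 site of 10711 bp at Hsp90ab1, for example, ranked 361 in A by the mean but 22 by summed signal, the mean times the width. The difference between phases is given as log2 of the M over the A signal (log2 M/A), and a difference of 1.5-fold or more in either direction is counted. Rank 1 is the strongest site of a list, and a percentile is the percent of sites of the same list with a lower signal. Signals of different tracks were scaled separately.

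All 14 intervals contained the transcript start of their gene. The widest were at the cytosolic chaperones. At Hsp90aa1, which encodes the stress-inducible HSP90α, the HSF1 site was chr12:110694015-110704309 and the HSF2 site chr12:110693602-110705488, and most of each lay upstream, with 7914 and 9093 bp before the first transcript start at 110696395. At Hsp90ab1, which encodes the constitutive HSP90β, the HSF1 site chr17:45565876-45576586 covered the whole gene, from 45567775 to 45573271, together with its surroundings. The HSF2 site at Hsp90ab1, chr17:45571870-45575417, was confined to the start and covered 33.1% of the HSF1 interval. Among the co-chaperones the sites were chr19:7038082-7041833 (HSF1) and chr19:7037663-7041559 (HSF2) at Stip1, and chr12:87265265-87268404 and chr12:87265649-87267549 at Ahsa1. They were chr6:128436932-128442281 and chr6:128436695-128442988 at Fkbp4, chr10:128058181-128060044 and chr10:128057752-128060011 at Ptges3, and chr9:18290908-18293376 and chr9:18291593-18293401 at Chordc1. In the whole lists, the share of intervals that met one of the other factor was 51.2% for HSF1 and 40.7% for HSF2. At the 7 genes the intervals of both factors held the same transcript start, so they had to overlap (7 of 7). That count was fixed by the shared start and cannot be set against the shares of the whole lists. The starts of other genes shared 2 of these places. The miRNA gene Gm47293 starts 160 bp from Ahsa1 on the same strand, the coding gene Vipas39 starts 442 bp from it on the other strand, and the antisense RNA Gm10069 starts 80 bp from Fkbp4, so the signal there cannot be given to a single gene. Of the 10 genes, 1 (Ahsa1) had a site of the pluripotency factor SOX2 within 1 kb of a start, beside 4.99% of coding genes.

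**Figure D1:**
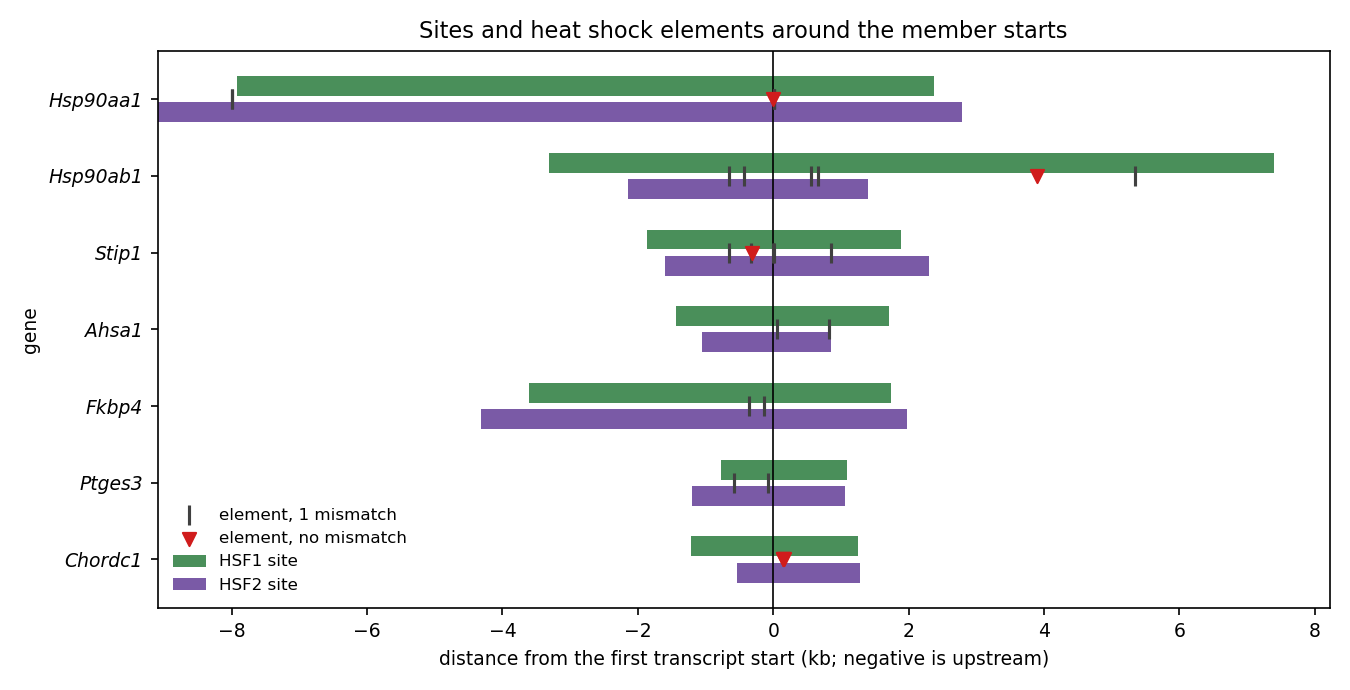
HSF1 sites (green) and HSF2 sites (purple) of the 7 genes with a site, drawn to scale by distance in kb from the first transcript start (vertical line; upstream is negative). Red triangles mark heat shock elements of 3 units with no mismatch and grey ticks those with 1 mismatch; the elements without a mismatch lie close to the start at Hsp90aa1, Stip1 and Chordc1 and 3891 bp into the gene at Hsp90ab1.

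The rule for sites uses no sequence, so the reference (GRCm38.p6, the assembly of mm10) was searched for the heat shock element in each interval. The element was 3 GAA units in alternating direction with 2 bases between them, GAANNTTCNNGAA or TTCNNGAANNTTC, on either strand. It was found in 4 of the 7 HSF1 member sites, at Hsp90aa1, Hsp90ab1, Stip1 and Chordc1, against 16.0% of 1719 HSF1 sites on the assembled chromosomes. It was found in 3 of the 7 HSF2 member sites, at Hsp90aa1, Stip1 and Chordc1, against 14.1% of 2131 HSF2 sites. Wide intervals have more room for a match, and among the HSF1 and HSF2 sites at or above the median width of their list the shares were 19.2% and 16.1%. At Hsp90aa1 the element straddled the transcript start, from 4 bp before it to 8 bp after it. At Hsp90ab1 it lay in an exon, outside the HSF2 interval. With 1 mismatch allowed in the 9 fixed bases, all 7 sites of each list held an element, as did 51.3% of all HSF1 sites and 49.2% of all HSF2 sites.

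Stip1 and Chordc1 are shown for their exact elements, and Fkbp4, Ptges3 and Ahsa1 for the element with 1 mismatch nearest to the start. Each stretch is read 5′ to 3′ on the strand of the gene, from the RefSeq sequence of GRCm38.p6, and the capitals mark the element. Stip1 (chr19:7040244-7040326, minus strand) has it 312 to 324 bp upstream of the start, in no annotated exon. Chordc1 (chr9:18292260-18292289, plus strand) has 3 overlapping copies that run on for 23 bases, in the first exon of the longer transcript. At Fkbp4 (chr6:128438792-128438821, minus strand) the element lies 123 to 135 bp upstream, within an exon of the antisense RNA, and at Ptges3 (chr10:128058841-128058923, plus strand) 66 to 78 bp upstream. At Ahsa1 (chr12:87266733-87266762, plus strand) it begins 43 bp downstream of the start, in the first exon.
Stip1: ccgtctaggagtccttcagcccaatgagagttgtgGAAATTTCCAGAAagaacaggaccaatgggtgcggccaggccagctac
Chordc1: ccgGAACGTTCGGGAAAATTCCTGAAgcag
Fkbp4: taaccgcttCTCTAGAAAGTTCtccgctcc
Ptges3: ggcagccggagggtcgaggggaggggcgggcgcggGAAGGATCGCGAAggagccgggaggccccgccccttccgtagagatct
Ahsa1: tgtgctgcTTCTAGTAGTTTCcaggcgctg

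Chordc1 encodes CHP1, a co-chaperone with zinc-binding CHORD domains, and its element was the longest in the group among those with no mismatch. A row of 4 units with no mismatch was present at Chordc1 alone among the 7 genes, and in 2.27% of all HSF1 sites and 1.13% of all HSF2 sites. In the RefSeq table of 300-base promoters (GRCm38.p6), 8 of the 10 genes matched, all except Hsp90aa1 and Hsp90ab1. The 3-unit element stood in the promoter of Chordc1 only among those 8, and in 0.603% of 32851 promoters. With 1 mismatch it stood in 5 of the 8 (Ahsa1, Fkbp4, Ptges3, Chordc1 and Cdc37), and in 7.22% of all promoters. The GC content of the 8 promoters lay between 56.0% (Ahsa1) and 73.7% (Ptges3), above the median of all promoters, 52.7%. A match is a property of the sequence and does not show that a factor sits on it.

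Per base, HSF1 was strongest at Hsp90aa1 and Stip1 and weakest at Fkbp4, whereas by summed signal Hsp90ab1 (ranks 22 in A and 28 in M) came before Stip1 (46 and 46), and in M Fkbp4 (528) before Chordc1 (850) and Ptges3 (967). At each of the 7 genes the mitotic signal was the lower one, and of all HSF1 sites only 8.11% were higher in M. Hsp90aa1, Hsp90ab1, Ahsa1 and Fkbp4 nevertheless lay above the median log2 M/A of all HSF1 sites. These 4 turned positive after centring on that median or on the weakest quartile. At Hsp90aa1 the signal was 22.4 in asynchronous cells (rank 86 of 1726) and 16.1 in mitotic cells (rank 64), a log2 M/A of -0.48. At Hsp90ab1 it was 10.6 (rank 361) and 7.02 (rank 361 again), a log2 M/A of -0.59. The site of the inducible chaperone thus had the higher HSF1 signal per base of the pair in each phase.

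Stip1 encodes HOP, the adaptor that holds HSP70 and HSP90 together while a client passes between them. Its HSF1 signal was 21.2 in A (rank 94) and 13.6 in M (rank 94), a log2 M/A of -0.64. Ahsa1 encodes AHA1, the activator of the HSP90 ATPase, and its HSF1 signal was 4.58 in A (rank 1126) and 4.18 in M (rank 835), a log2 M/A of -0.13. Fkbp4 encodes FKBP52, a peptidyl-prolyl isomerase of steroid receptor complexes. It had an HSF1 signal of 2.4 (rank 1509) and 2.24 (rank 1323), a log2 M/A of -0.10. Ptges3 encodes p23, which binds the ATP-bound, closed form of HSP90. Its signal was 7.36 in A (rank 700) and 3.82 in M (rank 928), a log2 M/A of -0.94. Chordc1 had 6.15 in A (rank 874) and 3.27 in M (rank 1065), a log2 M/A of -0.91.

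**Figure D2:**
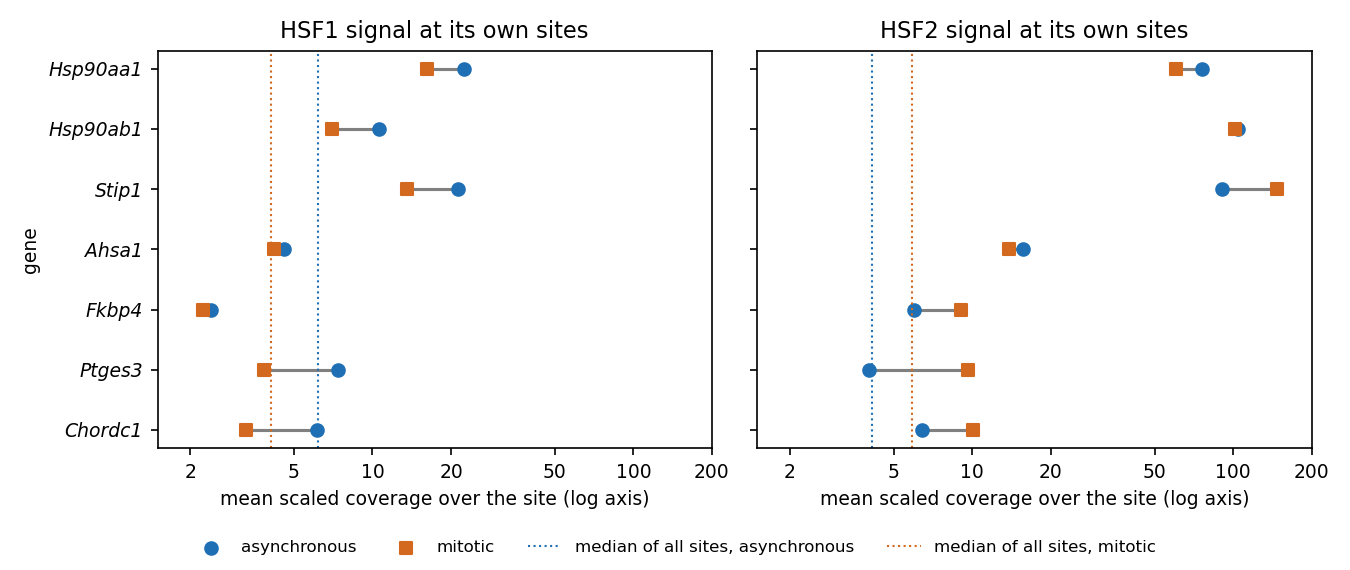
Signal of HSF1 (left) and of HSF2 (right) over the site of each gene, as mean scaled coverage on a log axis, in asynchronous cells (blue circles) and mitotic cells (orange squares); each point is the authors' mean, and dotted lines are the medians of all sites of the list. All 7 orange squares lie to the left of the blue circles for HSF1 and 4 of 7 lie to the right for HSF2. Over all sites, M is the higher phase at 8.11% for HSF1 and at 72.3% for HSF2. Centring on the weakest quartile turns 4 of the HSF1 directions and 3 of the HSF2 ones (Stip1, Fkbp4 and Chordc1).

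HSF1 was lower in M by 1.5-fold or more at 4 of the 7 sites (Hsp90ab1, Stip1, Ptges3 and Chordc1), which is close to the 53.4% of all HSF1 sites. The count was 0 after centring on all sites and on the weakest quartile, beside 8.98% and 9.97% of all. It was 7 with the other means given next, with no share of all sites beside it, so it describes the 7 sites only. The median log2 M/A was -0.59 over the 7 sites and -0.62 over all HSF1 sites. Relative to that median of all sites, which a shift of scale would move, Fkbp4 (0.52), Ahsa1 (0.49), Hsp90aa1 (0.15) and Hsp90ab1 (0.029) stood higher, and Ptges3 (-0.32), Chordc1 (-0.29) and Stip1 (-0.019) lower. In level, 2 of the 7 sites (Hsp90aa1 and Stip1) were in the top 10% of the asynchronous HSF1 list, against 9.97% of all sites, and 4 of 7 were in the upper 50%. By summed signal 3 sites, with Hsp90ab1 added, were in the top 10% and 7 in the upper 50%. A second pair of HSF1 means by the authors, carried by the site list, gave a median log2 M/A of -2.11 over the same 7 sites, with a lower signal in M at each of them but another order of the genes, from -1.07 at Stip1 and -1.96 at Hsp90aa1 to -2.65 at Fkbp4 and -3.27 at Ptges3. No median of all sites is given for these means, so the values cannot be set against the whole list.

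HSF2 was far stronger at Hsp90ab1, Stip1 and Hsp90aa1 than at most of its sites. The Hsp90ab1 site had a signal of 104.0 in asynchronous cells (rank 7 of 2135) and 101.8 in mitotic cells (rank 12), a log2 M/A of -0.032. At Hsp90aa1 the signal was 75.7 (rank 13) and 60.3 (rank 34), a log2 M/A of -0.33. Per base the constitutive gene thus had the higher HSF2 signal of the pair, the opposite order to HSF1, but by summed signal the wider Hsp90aa1 interval ranked 1 for HSF2 in A and 2 in M, ahead of Hsp90ab1 (7 and 7), and the order was that of HSF1.

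Per base the Stip1 site was the strongest of the group in mitosis, whereas by summed signal it ranked 4, after Hsp90aa1 (2). Its HSF2 signal was 90.8 in A (rank 10) and 146.5 in M (rank 5), a log2 M/A of 0.69, which became -0.017 when centred on the weakest quartile. Per base the Ahsa1 site came after those of Stip1, Hsp90ab1 and Hsp90aa1 in each phase. It had 15.7 in A (rank 168) and 13.8 in M (rank 203), a log2 M/A of -0.19.

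Per base the other co-chaperone sites were nearer the middle of the HSF2 list, although by summed signal the wide Fkbp4 interval ranked 178 in A and 96 in M, ahead of Ahsa1 (263 and 429). M was the higher phase at each of them, as at 72.3% of all HSF2 sites. Centring on the weakest quartile turned Fkbp4 to -0.11 and Chordc1 to -0.066. Fkbp4 had an HSF2 signal of 5.95 in A (rank 689) and 9.02 in M (rank 522), a log2 M/A of 0.60. Chordc1 had 6.43 (rank 624) and 10.02 (rank 424), a log2 M/A of 0.64. Ptges3 had 4.02 (rank 1107), below the asynchronous median of all sites, 4.14, and 9.63 in M (rank 464), a log2 M/A of 1.26 and the widest gap of the 7.

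HSF2 was higher in M by 1.5-fold or more at 4 of the 7 sites (Stip1, Fkbp4, Ptges3 and Chordc1), beside 46.1% of all HSF2 sites, but at 1 and 0 of them after centring on all sites and on the weakest quartile, beside 27.0% and 19.2% of all. It was lower by as much at none of the 7, beside 13.3% of all, but at 2 and 3 of them after these centrings, beside 24.4% and 32.9%. The median log2 M/A was 0.60 over the 7 sites and 0.49 over all. Relative to the median of all sites, Ptges3 (0.77), Stip1 (0.20), Chordc1 (0.15) and Fkbp4 (0.11) stood higher, and Hsp90aa1 (-0.82), Ahsa1 (-0.68) and Hsp90ab1 (-0.53) lower. With the weakest quartile as the centre, only Ptges3 (0.55) stayed above 0. In asynchronous cells, 4 of the 7 sites (Hsp90aa1, Hsp90ab1, Stip1 and Ahsa1) were in the top 10% of the HSF2 list, against 9.98% of all sites. By summed signal these 4 were Hsp90aa1, Hsp90ab1, Stip1 and Fkbp4.

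**Figure D3:**
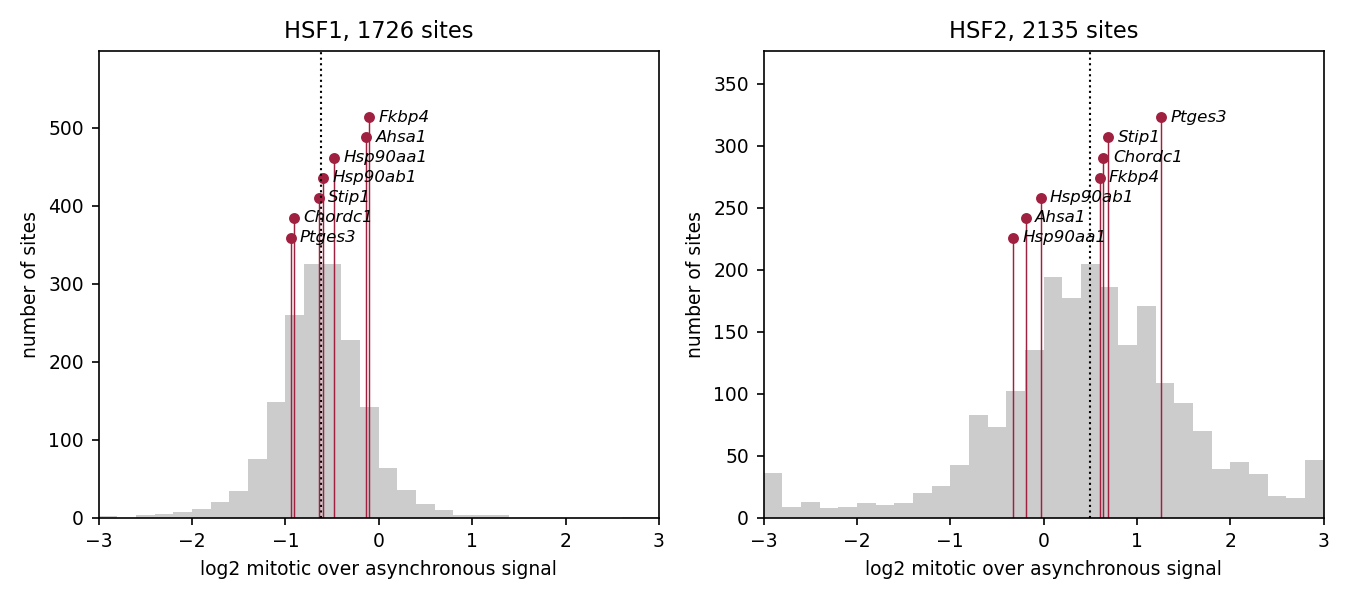
Number of sites by log2 M/A for HSF1 (left) and HSF2 (right), uncentred, with values past 3 in either direction placed in the outermost bars and the median of all sites dotted (-0.62 and 0.49). Red lines and points give the 7 genes, whose HSF1 values run from -0.94 (Ptges3) to -0.10 (Fkbp4) and whose HSF2 values run from -0.33 (Hsp90aa1) to 1.26 (Ptges3).

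Gene by gene, the log2 M/A of HSF2 minus that of HSF1 was largest at Ptges3, at 2.20 (1.09 after the median of all sites of each factor was subtracted). It was 1.55 at Chordc1 (0.44 after subtraction) and 1.33 at Stip1 (0.22). These 3 genes stayed above 0 either way. At Fkbp4 (0.70), Hsp90ab1 (0.56) and Hsp90aa1 (0.15) the difference turned negative after subtraction, to -0.42, -0.55 and -0.97. At Ahsa1 the difference was -0.056, but -1.17 after subtraction, and it turned positive with the other HSF1 means, at 1.91. With those means the difference was above 0 at all 7 genes, from 1.63 at Hsp90aa1 to 3.25 at Fkbp4 and 4.53 at Ptges3. The gaps compare means over intervals that overlap but are not identical.

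The constructs gave a different order of the same HSF2 sites. None of the 7 sites was in the top 10% for any construct, and the highest percentile was that of Hsp90ab1 for Halo-HSF2 with anti-HSF2 in asynchronous cells. Because the tracks were scaled separately, percentiles within each track are given beside the levels. Construct signals are means over the whole HSF2 intervals, 11887 bp at Hsp90aa1, and no ranks by summed signal were computed for them. A low percentile therefore does not show absence of binding. The authors report binding of both anti-HA constructs at Hsp90aa1. Neither an HA control nor knockout cells lacking a construct was analysed here, so the levels hold an unknown share of background.

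At Hsp90aa1 the Halo-HSF2 signal with anti-HSF2 was 0.973 in A (percentile 23.7) and 2.23 in M (44.8), and with anti-HA it was 1.16 (41.3) and 1.45 (27.1). Halo-H2DBD gave 1.34 (34.9) and 1.19 (23.9) there. In endogenous HSF2 the same interval stood at percentile 99.4 in A and 98.4 in M.

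At Hsp90ab1 the corresponding values were 3.10 (percentile 87.4) and 2.44 (50.1) for Halo-HSF2 with anti-HSF2, 2.27 (77.5) and 3.18 (79.1) with anti-HA, and 2.58 (77.8) and 2.37 (67.2) for Halo-H2DBD. This was the only one of the 7 sites in the upper 50% of every construct signal in both phases. At Stip1 they were 0.928 (21.9) and 1.12 (13.1) with anti-HSF2, 1.42 (52.7) and 2.17 (55.5) with anti-HA, and 1.65 (50.6) and 1.66 (44.2) for Halo-H2DBD. The Stip1 site, among the 10 strongest for endogenous HSF2 in each phase, was thus in the weakest quartile for Halo-HSF2 with anti-HSF2.

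At Ahsa1 the signals were 0.579 (9.37) and 1.60 (25.6) with anti-HSF2, 1.53 (56.8) and 1.17 (17.1) with anti-HA, and 2.81 (81.9) and 1.82 (49.7) for Halo-H2DBD. This was the highest percentile of Halo-H2DBD among the 7 in asynchronous cells. At Fkbp4 they were 1.21 (34.3) and 1.23 (15.7) with anti-HSF2, 0.592 (10.9) and 1.26 (20.0) with anti-HA, and 1.17 (25.9) and 1.11 (20.7) for Halo-H2DBD. Fkbp4 was low in each construct signal.

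At Ptges3 the signals were 1.90 (61.5) and 1.85 (33.4) with anti-HSF2, 1.70 (62.7) and 2.09 (53.1) with anti-HA, and 1.94 (61.3) and 2.29 (65.3) for Halo-H2DBD. In asynchronous cells this was the only one of the 7 genes that stood higher for each construct than for endogenous HSF2, whose percentile was 48.1. At Chordc1, the site with the longest element with no mismatch, the signals were 0.572 (9.27) and 0.718 (5.29) with anti-HSF2, 0.600 (11.1) and 1.16 (16.7) with anti-HA, and 1.13 (23.8) and 0.690 (6.60) for Halo-H2DBD. They were among the lowest of the group, although endogenous HSF2 stood at percentile 70.8 in A and 80.1 in M.

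**Figure D4:**
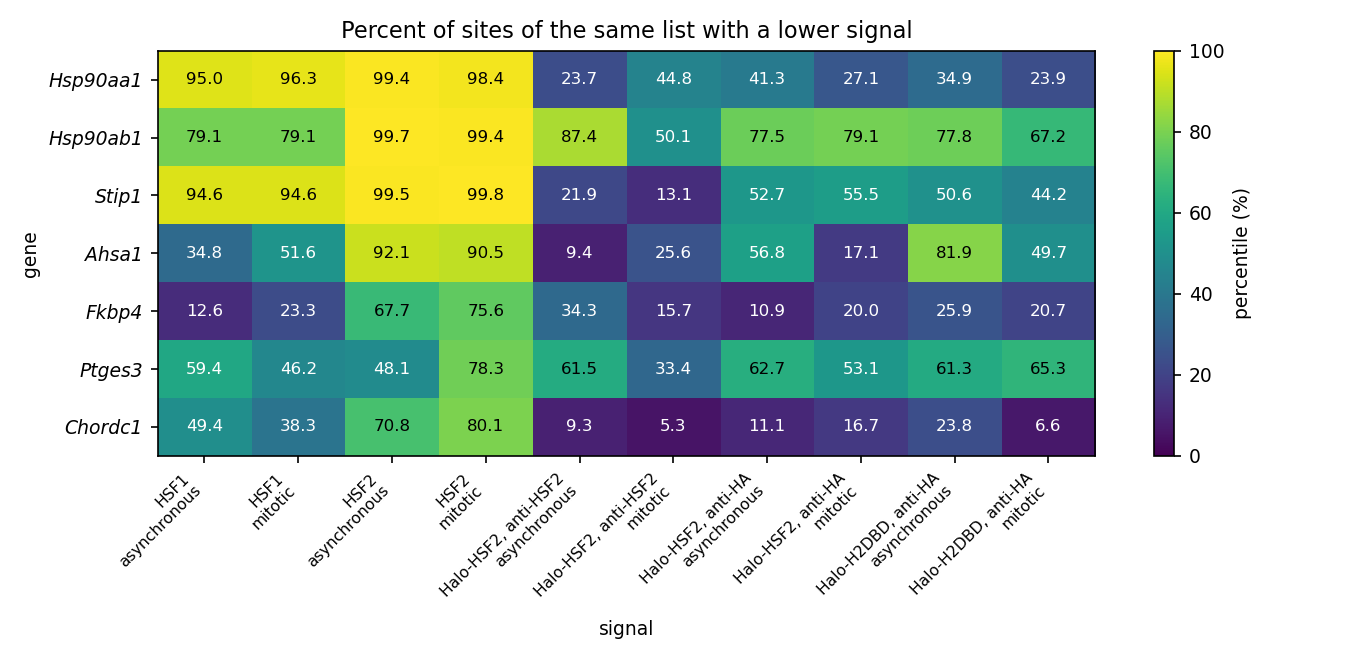
Percentile of each of the 7 genes (rows) among all sites of the list in each of 10 signals (columns), from 0 (dark) to 100 (yellow), with the HSF1 columns ranked among 1726 HSF1 sites and the others among 2135 HSF2 sites. The endogenous HSF2 columns reach 99.4 or more at Hsp90aa1, Hsp90ab1 and Stip1 in asynchronous cells, while the highest construct value is 87.4, at Hsp90ab1.

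Set directly against endogenous HSF2 over the same interval in asynchronous cells, the median log2 ratio over the 7 sites was -4.76 for Halo-HSF2 with anti-HSF2, -3.42 with anti-HA and -2.51 for Halo-H2DBD, where the medians of all sites were -1.29, -1.39 and -1.07. In mitotic cells the medians were -3.80, -3.56 and -3.86 over the 7 sites and -1.12, -1.44 and -1.62 over all. The ratio was lowest at Stip1 with anti-HSF2 in mitotic cells (-7.03) and nearest to 0 at Ptges3 for Halo-H2DBD in asynchronous cells (-1.05). Other strong sites, compared after the data were seen, differed from these in part. Over the 209 other sites in the top 10% of asynchronous HSF2, the median percentile in asynchronous cells was 57.8 for Halo-HSF2 with anti-HSF2, 34.3 with anti-HA and 32.6 for Halo-H2DBD, and in mitotic cells 22.8, 30.0 and 31.6, where the medians of Hsp90aa1, Hsp90ab1, Stip1 and Ahsa1, the 4 genes in that top 10%, were 22.8, 54.8 and 64.2 in A and 35.2, 41.3 and 47.0 in M. Over the 17 other sites among the 20 strongest it was 86.0, 77.6 and 69.4 in A and 53.2, 76.6 and 71.6 in M, above Hsp90aa1 and Stip1 for each construct in both phases, whereas Hsp90ab1 lay above these medians in A with anti-HSF2 and for Halo-H2DBD and in M with anti-HA, and below them otherwise.

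**Figure D5:**
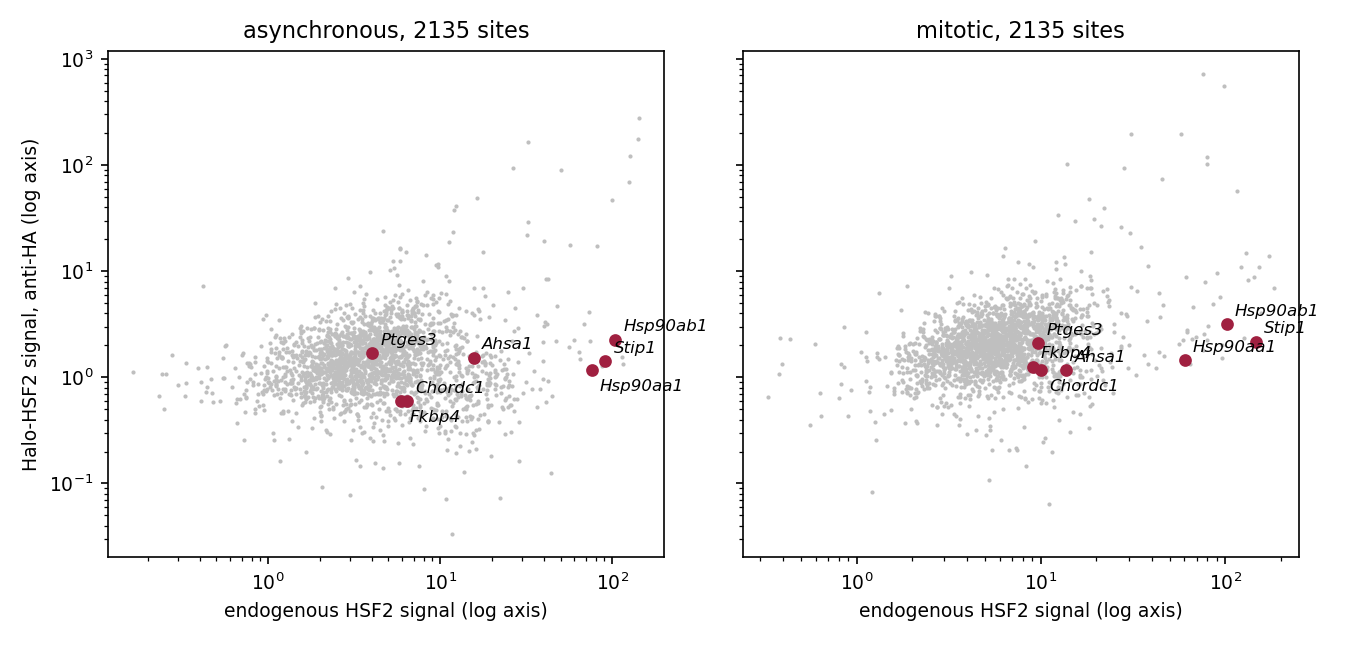
Halo-HSF2 signal with anti-HA against endogenous HSF2 signal over the 2135 distinct HSF2 sites in asynchronous cells (left) and mitotic cells (right), both axes logarithmic, with each grey point a site and the 7 genes in red. Hsp90ab1, Stip1 and Hsp90aa1 lie at the far right, at endogenous signals of 75.7 to 104.0 in asynchronous cells, but at construct signals of only 1.16 to 2.27.

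Between phases the construct signals at the 7 sites varied in direction. Halo-HSF2 with anti-HSF2 was higher in M by 1.5-fold or more at Ahsa1 (log2 M/A 1.47) and Hsp90aa1 (1.20), 2 of 7 sites beside 53.2% of 2121 sites with a ratio, of which Ahsa1 alone was left (1 of 7) after centring on all sites. After that centring Hsp90ab1 (-0.99), Ptges3 (-0.67) and Fkbp4 (-0.62) were lower by as much. With the weakest quartile as the centre only Hsp90ab1 (-0.87) was. Halo-HSF2 with anti-HA was higher in M by 1.5-fold or more at Fkbp4 (1.09), Chordc1 (0.96) and Stip1 (0.61, but -0.087 when centred on the weakest quartile), 3 of 7 beside 48.8% of all sites, and at 0 of 7 after centring. Ahsa1 was then lower by as much, at -0.96 centred on all sites and -1.08 on the weakest quartile. Halo-H2DBD was lower in M by 1.5-fold or more at Chordc1 (-0.71) and Ahsa1 (-0.63), 2 of 7 beside 10.2% of 2134 sites, and 0 of 7 with 1 added to both signals. For the constructs, no share of all sites is given after centring or with 1 added, so those counts describe the 7 sites only. The medians over the 7 sites were 0.27, 0.49 and -0.13, beside 0.64, 0.57 and 0.10 over all sites, so that each lay below the median of its track. At Ahsa1 the Halo-HSF2 tracks had opposite directions, with a log2 M/A of 1.47 by anti-HSF2 and of -0.39 by anti-HA, and these tracks may differ in the fusion as well as in the antibody. These are ratios of low signals.

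The HSF2 sites nearest to each cytosolic chaperone in all 8 percentiles of the HSF2 table were sought among 1555 other sites within 1 kb of a coding start, by Euclidean distance. The nearest to Hsp90aa1 was the site at Hspd1 (distance 22.3 percentile points), the gene of the mitochondrial chaperonin HSP60, with an HSF2 signal of 71.9 in A and 96.6 in M. It was followed by sites at Traf3, Prmt2, Dedd2 and Bst2, at distances of 31.3 to 37.3. The nearest to Hsp90ab1 was the site at Dnajb1 (distance 21.6), which encodes an HSP40 that delivers clients to HSP70, with 47.2 in A and 61.9 in M. The sites at Fbxo47, Nme1, Izumo4 and Irx5 followed at distances of 29.0 to 36.0. Hspd1 (rank 16) and Dnajb1 (rank 25) were the only ones of these 10 within the 100 strongest asynchronous HSF2 sites.

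The genes with no site lay far from any. Hsp90b1 encodes GRP94, the HSP90 of the endoplasmic reticulum, and its start was 1165 kb from the nearest HSF1 site and 788 kb from the nearest HSF2 site. Trap1 encodes the HSP90 of mitochondria, and for it both distances were 726 kb. Cdc37 encodes the co-chaperone that brings kinases to HSP90, and its start was 196 kb from the nearest HSF1 site and 216 kb from the nearest HSF2 site. The chaperones with a site were thus the cytosolic ones. Widening the distance to 5 kb added no gene to either list.

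A longer list of 32 other HSP90 co-chaperones was examined in the same way. Of these, 6 had an HSF1 site, 12 an HSF2 site and 4 a site of each factor (Ahsa2, Fkbp8, Cacybp and Pih1d1), beside 4.53%, 8.32% and 3.13% of all coding genes. The median asynchronous HSF2 signal over the 12 sites was 4.20, against 15.7 over the 7 sites above. Ahsa2, a relative of Ahsa1, had the strongest HSF2 site of the list, with 16.6 in A (rank 151) and 12.9 in M (rank 231), a log2 M/A of -0.36. Its HSF1 signals were 12.9 and 10.5 (log2 M/A -0.30), so that like Ahsa1 it was lower in M for both factors, though above the HSF1 median of all sites. In A, HSF1 was strongest at Dnajc7, whose product binds HSP70 and HSP90, with 19.0 in A and 9.09 in M and no HSF2 site. In M, HSF1 was strongest at Ahsa2 (10.5). HSF2 was higher in M by 1.5-fold or more at 7 of the 12 sites, beside the 46.1% of all HSF2 sites, the most at Sgta, with signals of 3.11 and 11.7 (log2 M/A 1.91), and lower by as much at Fkbp8, with 12.0 and 6.24 (-0.94). HSF1 was lower in M by 1.5-fold or more at 4 of the 6 sites, beside the 53.4% of all HSF1 sites. After centring on all sites and on the weakest quartile, the HSF2 sites higher in M were 6 and 3, beside 27.0% and 19.2% of all sites, and those lower in M 3 and 4, beside 24.4% and 32.9%. The HSF1 sites lower in M were then 1 and 1, beside 8.98% and 9.97% of all, and those higher in M also 1 and 1, beside 8.81% and 8.23%. Of the 12 HSF2 sites, 1 held a heat shock element, beside 14.1% of all HSF2 sites. It was the wide Fkbp8 interval (7002 bp), which held 3. None of the 6 HSF1 sites held one, beside 16.0% of all HSF1 sites.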

How the data were processed

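The authors aligned CUT&Tag reads to mm10 with Bowtie2, kept PCR duplicates, scaled coverage by the number of reads from a Drosophila spike-in, called HSF1 and HSF2 sites with SEACR against IgG, and deposited mean coverage signals, of HSF1 and SOX2 over their own sites and of HSF2 and the constructs over HSF2 sites. These signals are the authors' means, with no separate libraries, and the files state no read depth. From them, log2 M/A without a pseudocount, ranks, percentiles and ratios to endogenous HSF2 were computed. The 6 repeated HSF2 intervals were counted once. Sites were set against GENCODE M21 basic transcript starts, and elements were searched in GRCm38.p6, with code tested on simulated data. The members and the gene lists were chosen with earlier results of these data known. All 10 genes are named, other lists by role and extremes. Alternatives changed the pseudocount, centring, means, distance, starts, signal minimum, element, overlap and rank. Hsf2 knockout cells without a construct, mixed cells, anti-HA control and IgG were not analysed here. Python 3.11.15, numpy 2.4.6, pandas 2.3.3, pysam 0.24.0, samtools 1.23.1 and matplotlib 3.10.9 were used.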

Additional observations from a re-analysis of the deposited data

How the results depend on the processing

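No paired analysis was possible because the columns are means that carry no replicate number, and they state no depth. The median log2 M/A over the 7 sites was, with 0.1 and with 1 added, -0.59 and -0.53 for HSF1, 0.59 and 0.53 for HSF2, 0.25 and 0.13 for Halo-HSF2 with anti-HSF2, 0.47 and 0.35 with anti-HA, and -0.12 and -0.090 for Halo-H2DBD. Minus the median of all sites and minus that of the weakest quartile it was 0.029 and 0.0013 for HSF1, 0.11 and -0.11 for HSF2, -0.37 and -0.25 with anti-HSF2, -0.082 and -0.21 with anti-HA, and -0.22 and -0.13 for Halo-H2DBD. Centring thus turned the sign of 11 and 14 of 35 single values. Of those past 1.5-fold, these were HSF1 at Hsp90ab1 (0.029 and 0.0013) and, for the weakest quartile, HSF2 at Stip1 (-0.017), Fkbp4 (-0.11) and Chordc1 (-0.066) and anti-HA Halo-HSF2 at Stip1 (-0.087). Over the 7 sites alone, the authors' other means gave -2.11 for HSF1 and, as an alternative chosen after seeing the data, 0.58 for HSF2. Among these alternatives, shares of all sites stand above for the centred HSF1 and HSF2 counts only. The other counts of calls below describe the 7 sites alone. The count of HSF1 sites lower in M by 1.5-fold became 3 with 1 added (without Hsp90ab1), 0 under either centring and 7 with the other means. That of HSF2 sites higher in M became 3 with the other means (without Fkbp4), 2 with 1 added, 1 minus the median of all sites and 0 minus that of the weakest quartile. For Halo-HSF2 it became 1 with anti-HSF2 minus the median of all sites, and with anti-HA 2 with 0.1 added (without Stip1) and 0 with 1 added or under either centring, and for Halo-H2DBD lower in M it became 0 with 1 added. Minus the median of all sites, Halo-HSF2 was lower by 1.5-fold or more at Hsp90ab1, Ptges3 and Fkbp4 with anti-HSF2 and at Ahsa1 with anti-HA. Minus that of the weakest quartile it was so at Hsp90ab1 and Ahsa1, respectively. By summed signal the median ranks in mitotic cells were 460 for HSF1 and 96 for HSF2, against 835 and 203. Only 4 genes kept an HSF1 site when intervals with a mean of A and M below the median were left out, and all 7 an HSF2 site. These counts have no share of all coding genes beside them. No other definition of the start or distance changed the 7 genes, nor did overlap by at least 50% of the shorter interval change the 7 pairs. An element was at 7 genes for each factor with 1 mismatch and at 1 gene with 4 units. Against endogenous HSF2, the median difference of percentiles in A and M was -61.5 and -59.9 for Halo-HSF2 with anti-HSF2, -46.8 and -55.6 with anti-HA, and -41.9 and -54.8 for Halo-H2DBD, of the same sign as the ratios. The causes of these shifts were not tested.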

Other observations

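Other chaperone families carried sites at their starts as well. Of 13 genes of the HSP70 and HSP110 families, 6 had an HSF1 site and 7 an HSF2 site, beside 4.53% and 8.32% of all coding genes. Hsph1, which encodes an HSP110 that exchanges the nucleotide of HSP70, had an HSF2 signal of 114.4 in A (rank 6) and 96.6 in M (rank 14). Hspa5, the HSP70 of the endoplasmic reticulum, and Hyou1, its HSP110 partner, had no site, as was the case for Hsp90b1 of the same compartment. The mitochondrial Hspa9 had an HSF2 site of middling signal, 4.77 in A and 8.24 in M. Of 10 chaperonin genes, 8 had a site of each factor, beside 3.13% of all coding genes. Hspd1 and Hspe1, which share a promoter and encode the mitochondrial HSP60 and HSP10, shared a site in each list, with an HSF2 signal of 71.9 in A and 96.6 in M and an HSF1 signal of 24.2 and 15.0. Among the cytosolic chaperonin subunits, Cct7 had the strongest HSF1 site, with 25.2 in A (rank 72) and 16.3 in M (rank 62). Its HSF2 site ranked 691 in A and 1228 in M, so it stood higher in the HSF1 list, whereas Hsp90ab1 stood higher in the HSF2 list.

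None of the 4 HSF genes had an HSF1 site at its own start, beside 4.53% of all coding genes, and 2 had an HSF2 site, beside 8.32%. At Hsf4 the HSF2 signal was 23.4 in A (rank 84) and 3.75 in M (rank 1661), a log2 M/A of -2.64. At Hsf1 it was 0.439 in A (rank 2120) and 3.48 in M (rank 1747), a log2 M/A of 2.99. Each pair includes a low signal, and no spread between libraries is known.

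The SOX2 interval at Ahsa1 ends 226 bp before the start and lies inside the HSF1 and HSF2 sites, with a SOX2 signal of 35.7 in A (rank 1659 of 15081) and 20.7 in M (rank 4552), a log2 M/A of -0.79 where the median of all SOX2 sites was 0.34. A SOX2 interval 1375 bp upstream of Hsp90ab1, beyond the limit of 1 kb, had 7.49 in A and 25.7 in M. Another, 6275 bp upstream of Hsp90aa1 and inside its HSF1 and HSF2 sites, had 33.9 in A and 33.0 in M.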
